A study of Mus musculus with 2 samples.

Results

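A set of 10 genes of cyclic AMP signalling was followed in DNase-seq of mouse hippocampus: the adenylyl cyclases Adcy1, Adcy2 and Adcy8, the protein kinase A (PKA) subunits Prkaca, Prkacb, Prkar1b and Prkar2b, and the phosphodiesterases Pde4b, Pde4d and Pde10a. These were chosen by symbol, as enzymes that make, relay and break down the messenger, out of 21938 protein-coding genes of the annotation. No measured value was used for the choice, though earlier results of these data were known when it was made. In this assay the nuclease DNase I cuts where chromatin is accessible. The mice were female B6CASTF1/J animals of 25 days, first-generation hybrids between a laboratory strain and one derived from wild mice. The labels call the tissue a layer of hippocampus without saying which, and carry no treatment or engineered allele. There were 2 libraries, biological replicates 1 and 2 of 1 group, from separate tissue samples with the same donor entry, so that nothing was compared between conditions and the spread between libraries may be technical in part.

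Adenylyl cyclases make cyclic AMP from ATP. Cyclic AMP binds the regulatory subunits of PKA and frees its catalytic subunits, which phosphorylate ion channels, receptors and the transcription factor CREB, and phosphodiesterases break the messenger down again. In hippocampal neurons the pathway is best known for its part in long-lasting synaptic potentiation and memory. Phosphodiesterase genes of the Pde4 family are long and have many internal transcription starts, which give long and short forms of the enzyme with different regulatory regions at their N terminus.

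A gene was called open when a peak of the stricter peak list of each library lay within 500 bp of any of its annotated starts, and starts whose 500 bp windows overlap were joined into 1 start group. Peak strength is the deposited signal value, whose scale is not stated, so each library is described on its own and the rank of a gene among open genes is given beside its signal. Over all open protein-coding genes the median signal of the strongest start was 4.3 in replicate 1 and 1.8 in replicate 2. Depth cannot be read from these files, and the number of libraries limits the precision of every value. In bulk tissue, accessibility in fewer cells and less accessibility per cell cannot be told apart.

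By the same rule, open genes among the markers numbered 5 of 5 for neurons in general, 3 of 5 for excitatory hippocampal neurons (Slc17a7 had a peak in replicate 1 only and Prox1 in replicate 2 only), 0 of 5 for GABAergic interneurons, 1 of 5 for astrocytes (Gfap), and 0 of 5 each for oligodendrocytes, microglia, endothelium and choroid plexus. Another 3 astrocyte markers, Aldh1l1, Slc1a3 and Slc1a2, had a peak in replicate 1 only, as did Mbp of oligodendrocytes and Flt1 of endothelium. Over all protein-coding genes the share was 54.2% with the stricter lists, close to the 3 of 5 excitatory markers, and 59.7% with the longer lists. With the longer lists 4 of the 5 astrocyte markers and 5 of the 5 excitatory ones were open. Mbp of oligodendrocytes and Csf1r of microglia were then open too, and those of interneurons, endothelium and choroid plexus stayed at 0. Markers of striatal projection neurons, the cells in which Pde10a is most abundant, included Drd1 and Rgs9, which were open, and Drd2, Adora2a, Ppp1r1b and Penk, which had a peak in replicate 1 only. The part of other cell types in the values below was not tested.

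The sequences that the results turn on are shown first, each read from the reference assembly GRCm38.p6 (mm10), so they do not show the CAST allele. They are written 5′ to 3′ on the strand of the gene. The first set holds the 3 open distal regions of these genes that contain a full cyclic AMP response element, TGACGTCA, the site that CREB family factors bind, here in capitals. They are 240 bases at chr15:64923021-64923260 (minus strand), 0.845 kb upstream of Adcy8, 240 bases in an intron of Pde4d at chr13:109822401-109822640 (plus strand), and 220 bases at chr17:8487901-8488120 (plus strand), 37.36 kb upstream of Pde10a.
Adcy8 upstream region: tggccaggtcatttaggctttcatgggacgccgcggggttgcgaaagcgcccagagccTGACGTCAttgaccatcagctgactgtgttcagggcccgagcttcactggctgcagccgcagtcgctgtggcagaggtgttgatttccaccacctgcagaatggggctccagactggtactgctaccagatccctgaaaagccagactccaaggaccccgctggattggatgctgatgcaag
Pde4d intron region: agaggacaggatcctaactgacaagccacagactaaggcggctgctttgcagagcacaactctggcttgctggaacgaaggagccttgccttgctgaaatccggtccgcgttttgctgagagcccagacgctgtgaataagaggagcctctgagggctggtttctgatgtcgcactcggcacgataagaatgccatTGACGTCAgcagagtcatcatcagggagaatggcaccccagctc
Pde10a upstream region: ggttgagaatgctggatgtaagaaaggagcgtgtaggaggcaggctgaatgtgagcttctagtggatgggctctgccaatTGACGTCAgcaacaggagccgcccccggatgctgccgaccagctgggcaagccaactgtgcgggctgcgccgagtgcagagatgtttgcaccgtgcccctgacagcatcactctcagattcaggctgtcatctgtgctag

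The second set holds the strongest open distal region of Pde4d, of Pde10a and of Adcy8 by mean rank over both libraries: chr13:109776201-109776400 (plus strand) in intron 7 of Pde4d, chr17:8614261-8614460 (plus strand) in intron 1 of Pde10a, and chr15:64917921-64918080 (minus strand) in intron 1 of Adcy8. Capitals mark a match to the consensus of CTCF, a factor that sits at chromatin loop anchors, in the first and second of them. Only matches at every position of a consensus are marked in these sequences, so an unmarked stretch may still hold a near match.
Pde4d strongest region: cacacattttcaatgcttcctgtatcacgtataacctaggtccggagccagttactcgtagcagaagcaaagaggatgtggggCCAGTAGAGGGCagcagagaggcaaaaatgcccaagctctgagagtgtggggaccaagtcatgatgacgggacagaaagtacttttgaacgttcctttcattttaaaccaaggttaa
Pde10a strongest region: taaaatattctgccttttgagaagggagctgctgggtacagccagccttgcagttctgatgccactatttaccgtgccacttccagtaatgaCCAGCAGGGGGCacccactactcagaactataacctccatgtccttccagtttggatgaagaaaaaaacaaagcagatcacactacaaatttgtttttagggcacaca
Adcy8 strongest region: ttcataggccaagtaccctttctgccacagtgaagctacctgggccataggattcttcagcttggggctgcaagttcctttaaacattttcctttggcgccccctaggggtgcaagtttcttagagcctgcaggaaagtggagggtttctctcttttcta

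The third set places the 200 bases before the start of Prkaca (chr8:83972793-83972992, plus strand), the strongest promoter of the 10 genes, beside the 200 bases before the start of Adcy1 (chr11:7063289-7063488, plus strand), the gene that was not open. Capitals in Prkaca mark CGTCA, the core TGACG of the element on the other strand, which occurs 2 times there. Adcy1 has 0 core sites in its stretch, 81.5% GC and 34 CpG dinucleotides, against 68.5% and 20 for Prkaca. The core did not go with openness across the set. Prkar2b and Adcy8 were open without a core site within 500 bp of their starts, and some internal starts of Prkacb had one but no peak.
Prkaca upstream: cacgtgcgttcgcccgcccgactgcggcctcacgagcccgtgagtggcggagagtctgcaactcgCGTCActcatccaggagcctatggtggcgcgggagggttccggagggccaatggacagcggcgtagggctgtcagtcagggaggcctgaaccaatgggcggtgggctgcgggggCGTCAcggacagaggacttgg
Adcy1 upstream: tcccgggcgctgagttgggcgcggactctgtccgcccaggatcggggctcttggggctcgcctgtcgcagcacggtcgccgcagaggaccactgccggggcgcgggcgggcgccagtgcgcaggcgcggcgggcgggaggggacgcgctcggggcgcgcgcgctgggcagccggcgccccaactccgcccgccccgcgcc

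The last set shows internal starts. Its first stretch is 254 bases at chr3:146770262-146770515 (minus strand) in the internal open start group of Prkacb, which has starts at 146770781 and 146770261. It lies before the start at 146770261 but downstream of the one at 146770781. A match to the consensus of the RFX factors is in capitals. The other stretches are the open ones before the starts of Pde4d-216 (chr13:109922361-109922520, plus strand) and Pde4d-203 (chr13:109926641-109926843, plus strand). At those 2 starts of Pde4d replicate 2 was as strong as replicate 1 or nearly so.
Prkacb internal start: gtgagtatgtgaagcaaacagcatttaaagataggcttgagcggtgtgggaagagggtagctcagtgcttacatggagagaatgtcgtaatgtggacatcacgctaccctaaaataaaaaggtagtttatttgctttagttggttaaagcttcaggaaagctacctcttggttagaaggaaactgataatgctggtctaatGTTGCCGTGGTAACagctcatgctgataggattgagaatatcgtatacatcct
Pde4d-216 start: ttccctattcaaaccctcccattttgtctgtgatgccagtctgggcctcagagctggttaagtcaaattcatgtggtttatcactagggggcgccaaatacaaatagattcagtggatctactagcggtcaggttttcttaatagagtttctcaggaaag
Pde4d-203 start: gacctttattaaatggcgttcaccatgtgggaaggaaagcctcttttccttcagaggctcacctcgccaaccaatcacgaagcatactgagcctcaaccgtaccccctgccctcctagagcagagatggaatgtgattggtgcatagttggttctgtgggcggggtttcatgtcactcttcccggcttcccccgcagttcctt

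Of the 10 genes, 9 were open, all but Adcy1, where 54.2% of protein-coding genes were open by the same rule. With the longer lists all 10 were open, beside 59.7%. By its strongest start, each of the 4 PKA genes lay above the median open gene in both libraries, at percentiles from 53.9 to 92.0, and the open cyclase and phosphodiesterase genes all lay below it in both, at percentiles from 2.65 to 32.3. For Prkar1b this holds only at an outermost start whose window also holds the start of Dnaaf5. At the start of its full-length forms Prkar1b had 0.963 in replicate 1 and no strict peak in replicate 2, within the range of the other classes. Prkaca, Prkacb and Prkar2b overlapped neither of the other classes in either library, as the plot of the strongest promoter peak by gene shows.

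**Figure D1:**
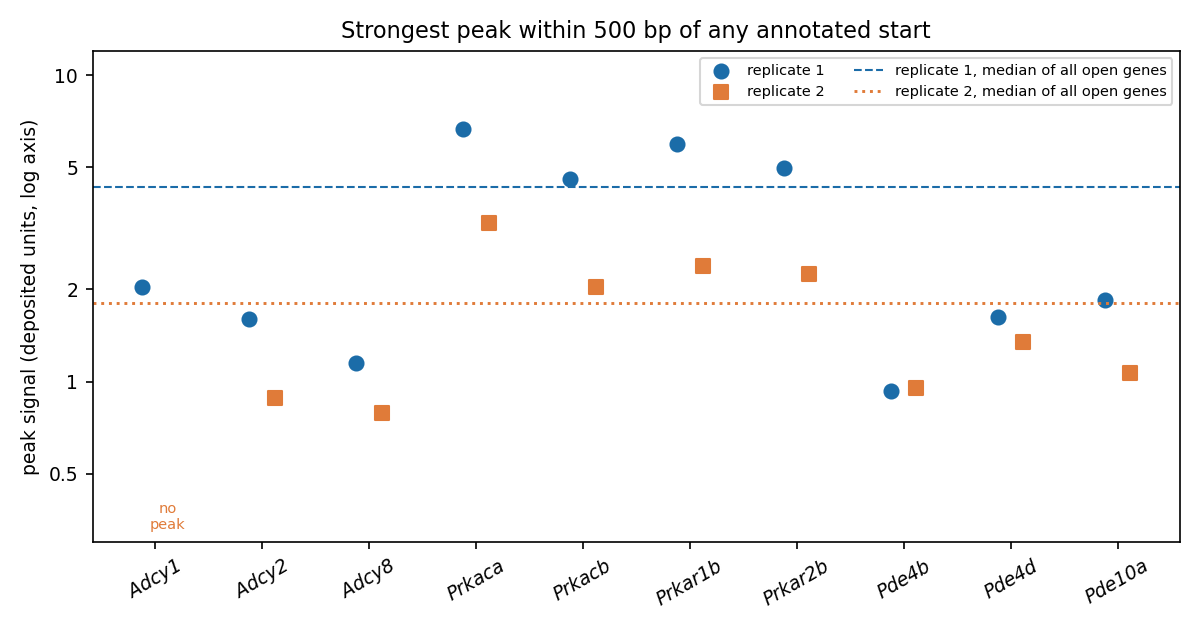
Signal of the strongest peak within 500 bp of an annotated start, in deposited units on a log axis, for each of the 10 genes in replicate 1 (circles) and replicate 2 (squares), with the median over all open protein-coding genes of each library as a line (4.3 and 1.8). The 4 PKA genes lie above the line of their library and the other 6 below it, with Prkar1b drawn at the start window it shares with Dnaaf5; Adcy1 had no peak in replicate 2.

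Among the cyclases, Adcy1 and Adcy8 encode enzymes stimulated by calcium and calmodulin, and Adcy2 one that calcium does not stimulate. Adcy1 (chr11:7063489-7178506, plus strand) had a promoter peak of 2.04 in replicate 1, at percentile 16.6, and none in the stricter list of replicate 2. The longer list of replicate 2, which admits bases at a false discovery rate (FDR) of the cut rate up to 0.05, held a peak of 0.683 there. The smallest FDR listed in the window was 1.69201e-10 in replicate 1 and 0.0160948 in replicate 2, and 1 footprint, a short protected stretch inside open chromatin, was shared by both libraries. The call of Adcy1 as not open thus rests on replicate 2.

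Adcy2 (chr13:68620043-68999541, minus strand) has a single start group, with signals of 1.6 in replicate 1 and 0.885 in replicate 2, at percentiles 10.8 and 14.9. Bases listed at an FDR of 0.05 or less covered 71.4% of its window in replicate 1 and all of it in replicate 2. Adcy8 (chr15:64697084-64922296, minus strand), also with 1 start group, had signals of 1.15 and 0.788, at percentiles 5.0 and 11.4. Its low peak was broad: 1300 bp wide in replicate 1 (chr15:64921361-64922660) and 498 bp in replicate 2 (chr15:64922221-64922718), with every base of the window listed in both libraries. Only 8.19% of open start groups in replicate 1 and 7.13% in replicate 2 had their whole window listed, and 6 of the 61466 strict peaks of replicate 1 were at least as wide as this one. In replicate 2, 1344 of the 50379 strict peaks reached the 498 bp of its Adcy8 peak. A pair of further regions lay directly beside it in the first exon, at chr15:64920528-64920920 (0.897 in replicate 1) and chr15:64920921-64921320 (1.71 in replicate 1). The gene overlaps Gm21798 over this stretch.

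Among the PKA genes, Prkaca (chr8:83972993-83996443, plus strand), the main catalytic subunit in most tissues, had the strongest promoter, with 6.65 in replicate 1 and 3.29 in replicate 2, at percentiles 79.2 and 92.0. Only the first of its 2 start groups was open, that of a 351 codon form, and the group 3.89 kb downstream, of a 343 codon form, had no peak in any list. Prkar2b (chr12:31958476-32061296, minus strand), the RII-beta regulatory subunit, has 1 start group, with 4.97 and 2.24 at percentiles 60.0 and 66.7.

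Prkacb (chr3:146729574-146812990, minus strand), the catalytic subunit beta, had 2 open start groups of 6, and 22.1% of genes with at least 6 start groups had 2 or more open. The first, of a 351 codon form, had 4.57 and 2.03 at percentiles 53.9 and 59.1. The other lay 42.21 kb into the gene, at the start of forms of up to 339 codons, with 1.23 in replicate 1 and 1.03 in replicate 2. Replicate 1 listed 29.5% of that window and replicate 2 listed 64.4%, and the RFX match printed above lay inside the strongest peak of replicate 2 but outside that of replicate 1. The group of the longest form, with 398 codons, had no peak in any list.

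Prkar1b (chr5:139017306-139150001, minus strand), the RI-beta regulatory subunit of neurons, had 5.96 and 2.39, at percentiles 72.4 and 71.9. This value belongs to the outermost start group, whose longest form with a complete 5′ end has 107 codons, and the same window holds the start of Dnaaf5, so the openness of the 2 genes there cannot be told apart. The group of the full 381 codon forms, 19.43 kb further in, had a strict peak of 0.963 in replicate 1 only and 0.533 in the longer list of replicate 2. With transcripts of the annotation's basic set alone, Prkar1b was not open and 8 of the 10 genes were, beside 52.4% of protein-coding genes.

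Start groups within the genes were counted next. The 10 genes have 75 annotated starts in 52 start groups, of which 18 were open; the share over all protein-coding genes was 26.6%, and 17.4% over genes with at least 5 start groups. With the longer lists 24 were open, beside 30.9%. The first group was open in 8 of 10 genes, all but Adcy1 and Pde4d, where 49.8% of first groups were open over all genes. Of the 42 later groups 10 were open, where the background was 7.61%, and 6 of those 10 belong to Pde4d. Another 4 groups had a strict peak in replicate 1 only and 1 in replicate 2 only, and 24 had no peak in any list. Confined to the stronger 50% of each strict list, 6 groups were open, beside 22.4% of all start groups. With a window of 100 bp, which splits the starts into 60 groups, 13 were open, close to the 22.0% of all start groups at that width. The higher share of open groups thus depends on the weaker peaks and on the window. It was not seen in the stronger 50% of the lists or at 100 bp.

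Pde4d (chr13:108449948-109953461, plus strand) encodes a cyclic AMP-specific phosphodiesterase and spans 1504 kb. It had 6 of 15 start groups open. Among the 125 protein-coding genes with at least 10 start groups, 2 had 6 or more open, or 1.6%, and Pde4d is among these 2. The first 3 groups, which reach 410.2 kb into the gene and include forms of 747 codons, had no strict peak in either library. The open groups began 666.3 kb downstream of the first start, at Pde4d-208, whose 803 codons are the most of any Pde4d form, with 1.6 in replicate 1 and 0.548 in replicate 2. The start of Pde4d-218, 810.7 kb in and with an incomplete 5′ end, had 1.34 and 0.533. Pde4d-205, of 703 codons and 992.2 kb in, had 0.868 and 0.608, with 0 shared footprints. Its peaks, chr13:109441537-109441729 in replicate 1 and chr13:109441561-109441685 in replicate 2, only reach into the upstream edge of its window. The start of the 678 codon form Pde4d-201, at 1236 kb, had 0.985 and 0.503.

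The last open groups of Pde4d lay close together near the end of the gene, where the short forms begin. Pde4d-207, of 584 codons at 1453 kb, had the highest strict signal of the gene in replicate 1, 1.62, but only a longer-list peak of 0.608 in replicate 2, and so was not open. The start of Pde4d-216, a transcript with a retained intron at 1473 kb, had 1.07 in replicate 1 and 1.35 in replicate 2, in a peak near the upstream edge of its window. Pde4d-203, of 517 codons at 1477 kb, had 1.37 and 1.28. Replicate 1 was thus the stronger library by a log2 ratio of 1.54, 1.33, 0.51 and 0.97 at the 4 upstream open groups and by -0.34 and 0.1 at the 2 downstream ones. The start between these 2, of the 504 codon form Pde4d-204, had no peak in any list. None of the 15 groups was open in the stronger 50% of the lists.

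**Figure D2:**
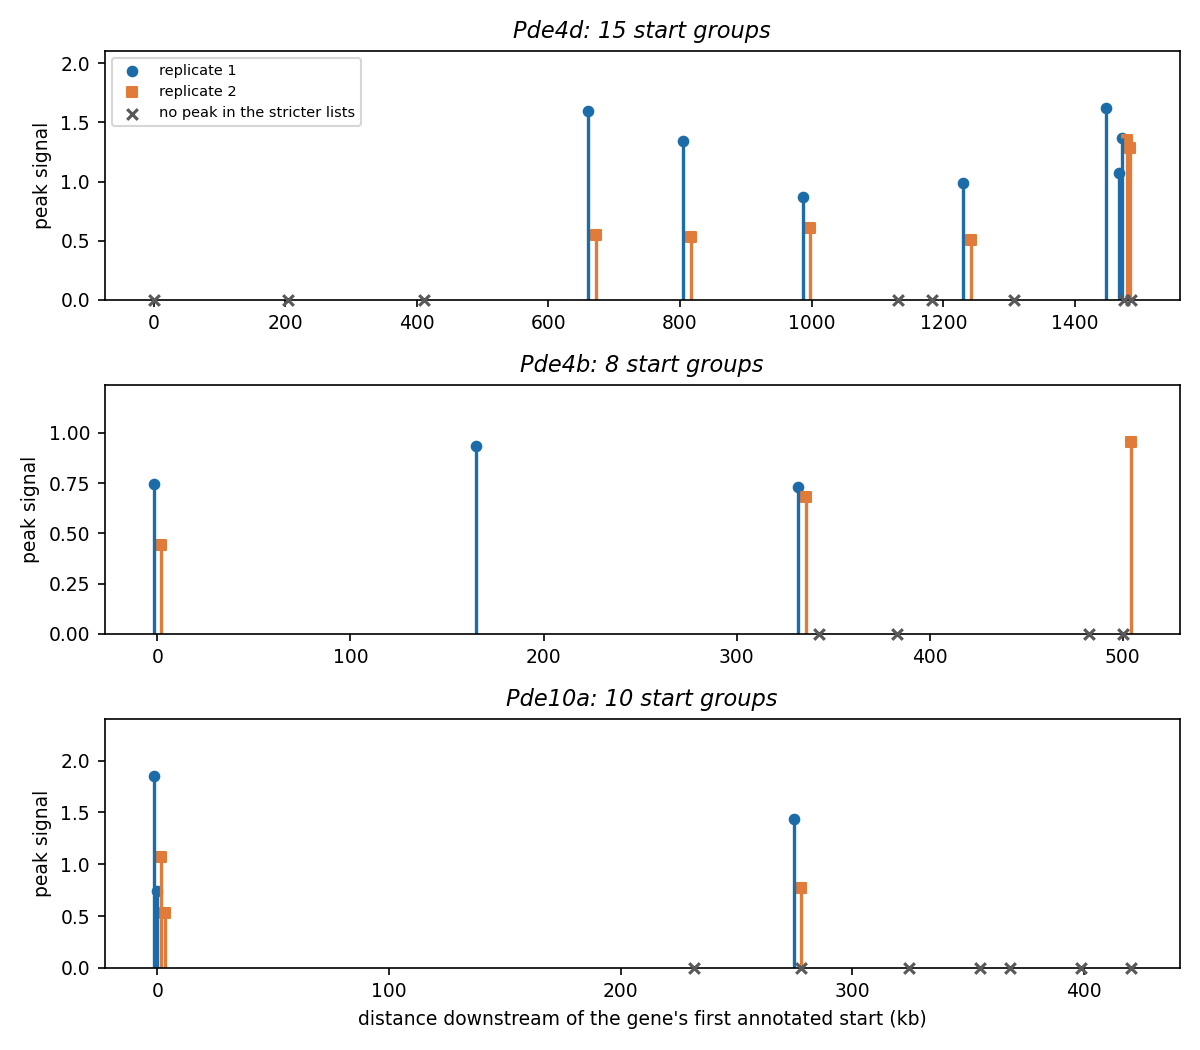
Signal of the strongest strict peak (deposited units) at each start group of Pde4d, Pde4b and Pde10a against its distance downstream of the first annotated start in kb, for replicate 1 (circles, shifted slightly left) and replicate 2 (squares, shifted slightly right), with a cross where neither library had a strict peak. Open groups of Pde4d run from 666.3 to 1477 kb, and 2 of the 3 open groups of Pde10a lie at its first starts.

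Pde4b (chr4:102087543-102607259, plus strand), a second cyclic AMP-specific enzyme, had the weakest promoters of the 10 genes in replicate 1, where its strongest peak of 0.934 stood at percentile 2.65. In replicate 2 its strongest was 0.953, at percentile 17.5, but at another start. The first start group, of a 736 codon form, had 0.743 in replicate 1 and 0.443 in replicate 2. The group at 334 kb, of a 659 codon form, had 0.728 and 0.683 in peaks that did not overlap but lay 8 bases apart. These were the 2 open groups of 8. The group of the 721 codon form, at 167.2 kb, had a strict peak in replicate 1 only (0.934, with 0.548 in the longer list of replicate 2), and that of the 503 codon form, at 502.2 kb, in replicate 2 only (0.953, with 0.757 in the longer list of replicate 1). The longer lists therefore give 4 open groups, a window of 100 bp gives 1 (22.0% of all start groups were open at that width), and the stronger 50% of the lists gives 0.

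Pde10a (chr17:8525372-8986648, plus strand), which breaks down both cyclic AMP and cyclic GMP, had 3 of 10 start groups open, where 10.4% of the genes with at least 10 start groups had 3 or more. The first group, of a 716 codon form, had 1.85 in replicate 1 and 1.07 in replicate 2, at percentiles 14.2 and 22.0. A second lay only 1.429 kb further, at the 850 codon form that is the longest of the gene, with 0.743 and 0.533. The third, of a 796 codon form 276.3 kb in, had 1.44 and 0.773. Starts of forms with 779, 716 and 727 codons further downstream had no peak in any list.

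At 3 of the 18 open groups (Pde4b at 334 kb, Pde4d-201 and the third of Pde10a) the strongest peaks of the libraries did not overlap, so the paired values there describe neighbouring stretches. Over all open start groups replicate 1 was the stronger library by a median log2 ratio of 1.23, with an interquartile range of 0.94 to 1.52. Among the 18 groups of these genes the ratio ran from -0.34 to 1.54 with a median of 0.82. It lay under that range at 11, within it at 6 and above it at 1. Weak starts had lower ratios in general: over all 1494 open start groups with a replicate 1 signal under 1.5 the median was 0.75. Of the 18 groups, 11 had a replicate 1 signal under 1.5. Choosing groups by a low replicate 1 signal lowers the ratio by itself. Whether the low ratios are particular to these genes was thus not tested. Replicate 2 was the stronger library at 1 of the 18, Pde4d-216, against 0.788% of all open groups.

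The observed to expected ratio of CpG in the window of the start group was 0.884 at the first group of Prkacb, 0.866 at Prkar2b and 0.907 at Adcy1, where the median over protein-coding starts was 0.425. The internal open groups of Pde4d lay between 0.301 and 0.579, and the second group of Pde10a had 0.183. Not all phosphodiesterase or internal starts were low: the first group of Pde10a had 0.638, its open group at 276.3 kb 0.722 and the first group of Pde4b 0.662. Pde4d-207, which was not open, had 0.87. Footprints shared by both libraries, overlapping by at least 50% of the shorter one, were found at 13 of the 18 open groups and at 3 of the 34 others, beside 86.8% of all open groups and 1.42% of those not open. The first group of Prkacb had 4 shared footprints, the most of any open group here, and that of Prkaca had 3.

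Beyond the starts, open regions of both libraries were counted in each gene and 50 kb to either side. The 10 genes had 60 such distal regions, with median signals of 2.09 in replicate 1 and 0.99 in replicate 2, beside 1.98 and 0.855 over all 21815 distal regions. All members except Prkacb had at least 1, as did 72.3% of protein-coding genes. Of the 60, 39 lay inside the gene (35 in introns, 4 in exons) and 21 outside it, 8 of these in another gene, and 21 were closer to the start of another gene than to one of their own. The phosphodiesterases held 31, the cyclases 18 and the PKA genes 11. A footprint shared by both libraries lay in 52 of the 60, beside 81.1% of all distal regions. The total was 117 with the longer lists, 34 with the stronger 50%, and 107 in replicate 1 taken alone.

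Density of distal regions ranked the genes differently from promoter strength. Adcy1, which was not open, had 7 regions or 3.26 per 100 kb, the highest of the 10 genes. However, 5 of the 7 lay downstream of it, around Igfbp1 and Igfbp3, including the strongest, chr11:7210421-7210620 with 3.97 in replicate 1 and 1.22 in replicate 2, and chr11:7215781-7215960 with 4.0 and 0.998. Prkacb, which had 2 open start groups, had 0 regions. Over all protein-coding genes the median was 0.955 per 100 kb, and the median was lower in longer genes, at 0.951 at 100 to 300 kb, 0.654 at 300 to 700 kb and 0.498 above 700 kb.

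Length classes were chosen after the values were seen. Against genes of their own class, Adcy1, Adcy8 (2.15 per 100 kb) and Prkar1b (2.58) lay above the upper quartile of 1.57, and Pde10a (2.14) above the upper quartile of 1.09. Pde4d, at 0.873, lay above the 0.748 of the longest genes. Adcy2 (0.834) and Pde4b (0.807) lay inside the quartiles of genes of 300 to 700 kb, 0.384 to 1.09, as Prkar2b (0.986) did for its class. Prkaca, in the class under 100 kb, had 2.43, above the upper quartile of 1.98.

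Pde4d had 14 distal regions, the most of the 10 genes, 13 of them inside it. The strongest by mean rank was chr13:109776201-109776400 in intron 7, with 9.21 in replicate 1 and 1.74 in replicate 2, followed by chr13:109210501-109210680 in intron 3, with 9.65 and 1.58. Both exceeded every promoter of the 10 genes in replicate 1, yet in replicate 2 both lay below the promoters of the 4 PKA genes. Only 3 of the 14 lay before 666.3 kb, in the stretch that also had no open start. Of the 14, 10 were more than 20 kb from any Pde4d start.

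Pde10a had 12 regions, 4 upstream of the gene and 7 within it. Its strongest, chr17:8614261-8614460 in intron 1, had 7.87 in replicate 1 and 2.03 in replicate 2, and chr17:9031821-9032020, downstream of the gene, had 6.73 and 2.03. Pde4b had 5 weak regions, led by chr4:102229021-102229242 with 2.1 and 0.728. A smaller one, chr4:102588820-102588982 with 1.2 and 0.923, lay 0.822 kb from the start group at 502.2 kb that had a strict peak in replicate 2 only.

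Among the cyclases, Adcy8 had 7 regions, and chr15:64917921-64918080 in intron 1 had 8.0 in replicate 1 and 1.85 in replicate 2, far above its promoter at 1.15 and 0.788. The second, chr15:64687281-64687500 downstream of the gene, had 4.32 and 2.0. Adcy2 had 4, the strongest being chr13:69002261-69002480, 2.83 kb upstream of its start inside the gene Gm35161, with 3.27 and 1.12, and then chr13:68815801-68816100 in intron 3, with 1.39 and 1.28.

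None of the 3 regions of Prkaca lay inside it: the leading ones were chr8:84004741-84004940 in 1700067K01Rik, with 4.43 and 1.91, and chr8:84009941-84010140, with 5.07 and 1.46. Prkar1b had 6, led by chr5:139179001-139179200 inside Dnaaf5, with 5.95 and 1.45, and chr5:139075261-139075440 in an intron of its own, with 3.13 and 1.06. The 2 of Prkar2b were chr12:31926781-31926995, where Cog5 and Hbp1 overlap it, with 4.54 and 1.16, and chr12:31973601-31973800 in intron 5, with 1.43 and 0.518. By class, 6 of the 11 regions of the PKA genes, 9 of the 18 of the cyclases and 24 of the 31 of the phosphodiesterases lay inside the gene itself.

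**Figure D3:**
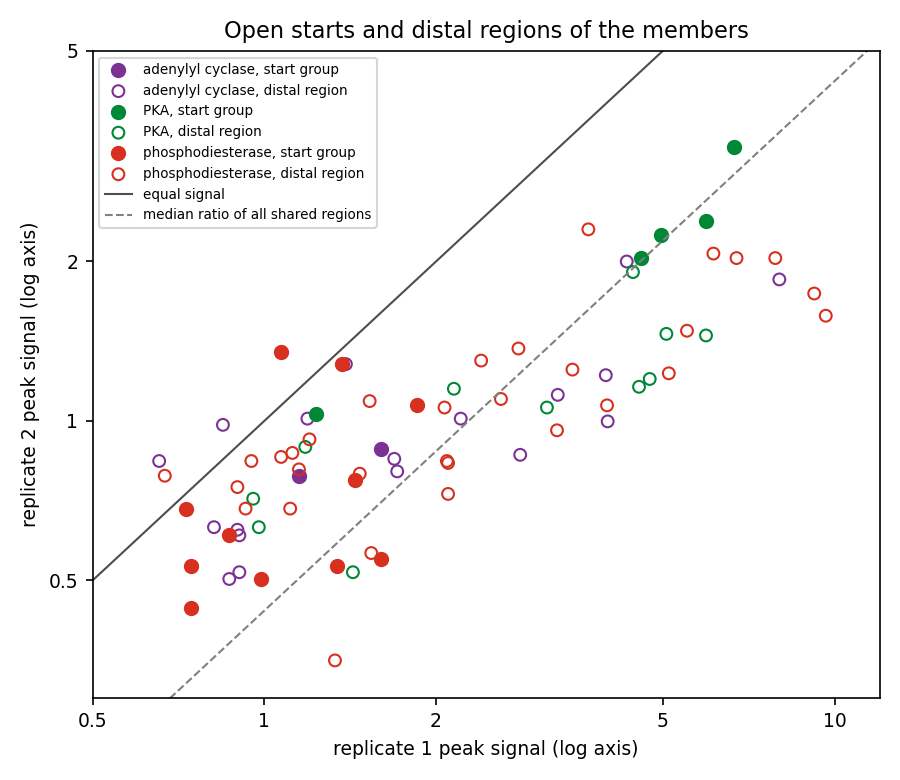
Signal in replicate 2 against signal in replicate 1 (deposited units, both axes log) for the open start groups (filled) and distal regions (open circles) of the 10 genes, coloured by enzyme class, with lines for equal signal and for the median log2 ratio over all shared regions (1.19). Start groups of the PKA genes other than the internal one of Prkacb lie at the upper end in replicate 2, and 3 distal regions and 1 start group lie above the line of equal signal.

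Replicate 2 was the stronger library at 3 of the 60 distal regions, against 5.12% of all distal regions. These were chr11:7016921-7017260 upstream of Adcy1 (0.846 in replicate 1 and 0.983 in replicate 2), chr15:64764681-64764860 in an intron of Adcy8 (0.654 and 0.84) and chr4:102656601-102656800 downstream of Pde4b (0.669 and 0.788). All 3 are weak regions of replicate 1.

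Matches to 5 motifs at every position of the consensus were counted on both strands, the core TGACG only outside the full element. Within 500 bases of each annotated start the full element TGACGTCA was found at 2.85% of all 93513 starts and at 0 of the 75 starts of these genes. The core was present at 30 of the 75, against 45.2% of all, the AP-1 site TGANTCA at 14, against 19.7%, and the CTCF consensus at 0, against 1.06%. The RFX consensus stood at 4 of the 75, against 1.12% of all; 2 of these are the neighbouring starts of the internal open group of Prkacb, so they share 1 match, and the others are closed starts of Prkar1b and Pde4d. Starts of 1 gene overlap in sequence and are not independent.

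In the central 200 bases of the distal regions the full element was found in 3 of 60, against 0.504% of all, and these are the regions printed first. Signals there were 0.868 in replicate 1 and 0.503 in replicate 2 at Adcy8, 6.13 and 2.07 at Pde4d, and 3.7 and 2.3 at Pde10a, the last being the strongest distal region of the 10 genes in replicate 2. A footprint lay over the element of Pde4d in replicate 2 only, and none lay over those of Adcy8 and Pde10a in either library. The core site was found in 11 of 60, against 9.37%, AP-1 in 4, against 6.89%, CTCF in 8, against 17.5%, and RFX in 0, against 0.688%. At the CTCF matches in the strongest regions of Pde4d and Pde10a, both libraries had a footprint over the match. A match describes letters and does not show that a factor was bound.

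Other genes of the pathway give the setting. Of 56 further genes 39 were open, 4 had a peak in replicate 1 only and 13 had no strict peak, beside the background of 54.2%. All 7 G protein alpha subunits that act on cyclase were open, led by Gnaz (8.59 in replicate 1 and 3.52 in replicate 2) and Gnai2 (4.68 and 1.91), which both inhibit it. The 5 other PKA subunits and inhibitors were all open too, with the regulatory subunit Prkar1a at 4.71 and 2.18 and the inhibitor Pkig at 3.88 and 1.43. Of these only Prkar1a lay above the median open gene, at a mean percentile of 60.4 over both libraries. Pkig (39.6), Pkia (32.6), Prkar2a (23.2) and Pkib (7.65) lay below it, so a strong promoter was not a trait of all PKA genes.

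Of 14 A-kinase anchoring proteins, which tether PKA to sites in the cell, 10 were open, led by Akap8 (6.29 and 3.06) and Akap13 (5.83 and 3.05), and Akap3, Akap4 and Akap14 had no strict peak. Among 7 other cyclases 4 were open, close to the 54.2% of all protein-coding genes. They were led by Adcy5 (7.36 and 1.73) and Adcy9 (4.57 and 1.55), and Adcy4 and Adcy10 had no strict peak. Adcy5 was therefore stronger than each of the 3 cyclases described above within each library.

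Among 21 other phosphodiesterases 12 were open, again close to the 54.2% of all protein-coding genes. At the top were Pde2a (9.39 and 2.19), which breaks down both cyclic nucleotides, and Pde6d (5.29 and 3.26), a prenyl-binding protein named for its place in the photoreceptor enzyme. Another 7 had no strict peak, among them Pde4c, Pde11a and the photoreceptor genes Pde6a and Pde6b. Of the 2 exchange factors that cyclic AMP activates directly, Rapgef3 was open (3.1 and 1.04), and Rapgef4 had peaks in the longer lists only (0.765 and 0.368).

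**Figure D4:**
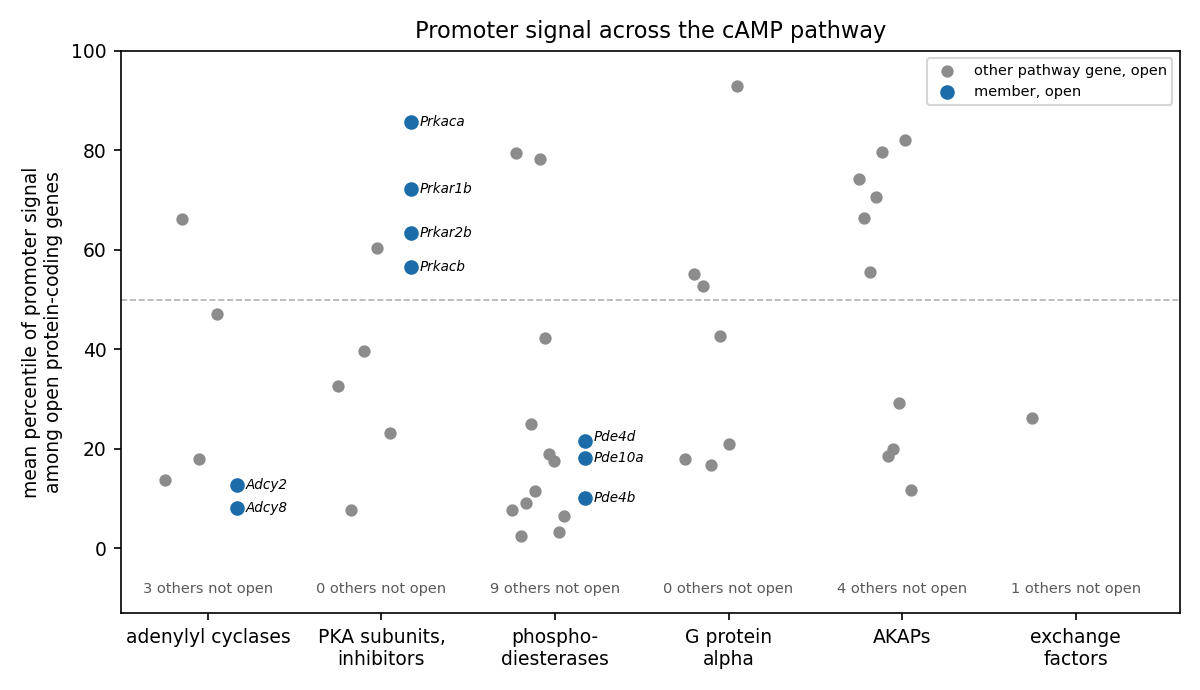
Mean over both libraries of the percentile of promoter signal among open protein-coding genes, by family, for the 9 open genes of the set (large, named) and the other open pathway genes (grey); the number of other genes not open is given under each family, and Adcy1 is not drawn. The PKA genes of the set lie above the dashed line at percentile 50 and its cyclases and phosphodiesterases below it. Other cyclases and phosphodiesterases reach higher, and of the other PKA subunits and inhibitors only Prkar1a lies above the line.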

How the data were processed

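DNase-seq of mouse hippocampus was measured in 2 libraries of 1 group, replicates 1 and 2. The authors deposited, for each library, 2 peak lists with a signal per peak on a scale that is not stated, a list of stretches with the false discovery rate (FDR, read here as a q-value) of the cut rate up to 0.05, and footprints at a constant 0.01, all on mm10, per the deposited description and the labels. The peak caller is not given in the sources used here, nor is the aligner, and depth is unknown. At the loci of the 10 genes every peak of the stricter list held a base at 0.001 or less and every peak of the longer list 1 at 0.05 or less. Peaks were matched to starts of GENCODE M21 (GRCm38.p6, which is mm10), and no peak ended past a chromosome end. Peaks of both libraries overlapping by 1 bp or more were joined into 37119 shared regions, of which 21815 outside all start windows were called distal.

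The 10 genes and the gene lists were chosen with earlier results of these data known. Every gene of the set is described. In each pathway family the 2 open genes of highest mean percentile and up to 4 genes without a strict peak, in alphabetical order, are named. The other PKA subunits and inhibitors are all named. For each of the 10 genes the 2 distal regions of highest mean signal rank are named. With 1 group no test between conditions exists, and the FDR values serve only as list limits. Overlap counting was tested on simulated peaks. Alternatives covered the peak list, the window, the transcripts, the flank, the overlap and each library alone. Python 3.11.15, numpy 2.4.6, pandas 2.3.3, pysam 0.24.0, samtools 1.23.1 and matplotlib 3.10.9 were used.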

Additional observations from a re-analysis of the deposited data

How the results depend on the processing

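No paired analysis was possible because both libraries belong to 1 group. Open genes of the set numbered 9 by the stated rule, 7 to 10 under the other settings and 9 to 10 with each library taken alone, while the share over all protein-coding genes ran from 47.1% to 60.2%. Open genes of the wider pathway numbered 39 by the stated rule, 27 to 44 under these settings and 39 to 43 with each library alone. Counts of start groups depended most on peak strength. Of 18 open groups 6 were left in the stronger 50% of the strict lists, with 0 at Pde4b and 0 at Pde4d, and each library alone gave 19 to 22. A window of 100 bp gave 13 of 60, beside 22.0% of all start groups. Pde4b had 4 open groups with the longer lists and 1 with a window of 100 bp, beside 2 by the stated rule, and each library alone gave 3. Pde4d had 6 to 7 with each library alone, and 4 with a window of 100 bp or with basic transcripts alone. Distal regions numbered 117 with the longer lists and 34 in the stronger 50%, beside 60, and 79 to 107 with each library alone, the higher value being replicate 1. The mean promoter signal moved at Adcy1, from 2.04 to 1.36 with the longer lists, which add a weak peak of replicate 2, and at Pde4b, from 0.943 to 0.593 at its outermost start. Depth is unknown and the signal scale is not stated, so a start with a peak in 1 strict list only could not be told from one just missed in the other, and values of the libraries could not be set on 1 scale.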
